A study of Mus musculus with 6 samples.

Results

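The mu-class glutathione S-transferases were examined as the 7 genes Gstm1 to Gstm7, found in the deposited count tables by symbol among 23282 entries in all. Forebrain hemispheres of male C57BL/6J mice, 8 to 10 weeks old, were profiled, with the olfactory bulbs and cerebellum removed. Mice of the WAS (water avoidance stress) group stood for 1 h on a small platform in a basin of water, and control mice stood on the same platform in a container without water. The animals were killed directly afterwards, and each group held 3 libraries, labelled as biological replicates. RNA was measured by QuantSeq 3′ mRNA-Seq, which reads polyadenylated transcripts near their 3′ end, in single-end reads of 75 bases. In bulk tissue, fewer cells of a type and less RNA per cell cannot be told apart.

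Glutathione S-transferases join glutathione to reactive, electrophilic compounds, so that these can be neutralised and exported from the cell. Mu-class enzymes act as dimers on a broad range of substrates, among them lipid peroxidation products such as 4-hydroxynonenal. In brain, GSTM1 is known as an enzyme of astrocytes, while GSTM5 is known from brain and testis. The mouse genes lie side by side in a cluster that arose by gene duplication, and their coding sequences are alike.

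All 7 members lie on chromosome 3, within a stretch of 149 kb in the GRCm38 (mm10) build, chr3:107895821-108044894, according to the GENCODE M21 annotation. Gstm5 is on the plus strand and the other 6 genes are on the minus strand, and the representative transcript of each member has 8 exons. Coding identity was highest between Gstm1 and Gstm3, at 89.5%, and lowest between Gstm3 and Gstm5, at 67.9%. Because the counts include reads with multiple alignments, the likeness of the copies decides how far their counts can be read as separate. The 60 coding bases before the stop codon of Gstm1 are shown with the 60 coding bases of each other member that differ least from them, in capitals where they differ from Gstm1. The stretches lie in the coding part of the last exon and come from GENCODE M21 transcripts, 5′ to 3′ on the strand of the gene.
Gstm1, chr3:108012692-108012751: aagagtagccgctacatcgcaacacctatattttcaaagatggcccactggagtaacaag
Gstm2, chr3:107982052-107982111: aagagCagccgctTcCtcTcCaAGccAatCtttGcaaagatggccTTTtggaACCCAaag
Gstm3, chr3:107964210-107964269: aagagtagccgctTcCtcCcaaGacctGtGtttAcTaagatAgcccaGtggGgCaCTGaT
Gstm4, chr3:108041239-108041298: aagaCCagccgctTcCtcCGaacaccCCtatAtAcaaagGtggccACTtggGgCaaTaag
Gstm5, chr3:107898478-107898537: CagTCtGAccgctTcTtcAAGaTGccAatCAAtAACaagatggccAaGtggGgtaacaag
Gstm6, chr3:107939230-107939289: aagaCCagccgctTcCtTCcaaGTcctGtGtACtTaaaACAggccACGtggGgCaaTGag
Gstm7, chr3:107926894-107926953: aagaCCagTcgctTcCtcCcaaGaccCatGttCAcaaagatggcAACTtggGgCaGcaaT
Gstm3 differed from Gstm1 at 16 of these 60 bases and Gstm6 at 23, the lowest and the highest number among the other 6 members.

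The 3′ end is where QuantSeq reads fall, so the last 500 bases of each member were compared in 426 windows of 75 bases, the read length, with the transcripts of every other annotated gene. No window of any member was identical to another gene. Gstm1 and Gstm3 were alike, with 46 windows each within 3 mismatches of the other. For Gstm2, Gstm4, Gstm5, Gstm6 and Gstm7, 0 windows came within 3 mismatches of another gene, and the closest window of Gstm6 to another member had 8 mismatches. Over whole transcripts, windows identical to another member numbered 51 among 1079 for Gstm6, 70 among 1215 for Gstm1 and 121 among 1237 for Gstm3. Reads from further upstream could therefore match another member. The antisense gene 4933431E20Rik overlaps the start of Gstm5, and whether counting used the strand is not given in the sources used here.

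Total counts lay between 9248520 and 10502029 per library, and values are given as CPM, which are counts scaled to 1000000 counts of the library total. The heading of the count column began with WC where the label was WAS and with WS where it was control. The sources do not define these headings. Here the sample labels were followed, and exchanging them would reverse every direction. WAS replicates 1 and 3 stood apart in 10 thalamic and midbrain marker genes, whose summed level was 574 and 532 CPM there, against 278 CPM in WAS replicate 2 and 259 to 266 CPM in the control libraries. Among these markers, Slc6a3, Gata3 and Gbx2 were at 0 in at least 1 library. Striatal markers summed to 183 CPM in WAS replicate 1 and 414 CPM in WAS replicate 3, against 1064 to 2130 CPM in the other libraries. Choroid plexus markers summed to 62.9 CPM in WAS replicate 1 and 18.6 CPM in control replicate 2, against 949 to 1261 CPM in the other 4 libraries. Results are therefore also given without these libraries. The forebrain label was met by 8 of 8 forebrain markers detected in every library, with sums of 784 to 997 CPM. The 6 cerebellar markers summed to 35.7 to 41.2 CPM, with Gabra6 and Fat2 at 0 to 2 counts per library and 3 others of the list detected in every library, and 1 of 4 tested met both criteria used below (unadjusted p under 0.05, and fold change 1.5 or more), higher in WAS, against 2.49% of all genes tested.

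Gstm5 and Gstm1 made up most of the mu-class counts. Of the counts of the 7 genes, Gstm5 took 50.1% ± 5.17 with the label WAS and 54.1% ± 3.72 with the label control (SD, n = 3 each). Gstm1 took 39.3% ± 3.96 and 36.6% ± 2.21 in the same groups. Gstm7 came next with 6.62% ± 1.45 and 6.34% ± 0.868, and the other 4 genes were each below 3%. Per kilobase of the representative transcript, over all 6 libraries, Gstm5 was at 149 ± 17.6 CPM (SD, n = 6), Gstm1 at 79.8 ± 12.9, Gstm7 at 12.7 ± 2.36, Gstm6 at 2.75 ± 1.25, Gstm4 at 2.57 ± 0.811, Gstm2 at 1.57 ± 0.228 and Gstm3 at 0.061 ± 0.085. The ranges of Gstm5 and Gstm1 per kilobase did not overlap, nor did those of Gstm1 and Gstm7, of Gstm7 and Gstm6, or of Gstm2 and Gstm3. The order of Gstm6 and Gstm4 per kilobase depended on the group, with Gstm6 above in 3 of 3 libraries labelled WAS and in 1 of 3 labelled control. Gstm4 was above Gstm2 in 5 of 6 libraries, with overlapping ranges. A 3′ method gives about 1 tag per transcript regardless of its length, and on the CPM scale without division by length Gstm4 came before Gstm6, being above it in 5 of 6 libraries, with the remaining order of the means being the same. On that scale the ranges of Gstm5 and Gstm1 did overlap, at 116 to 158 CPM and 89.1 to 132 CPM, although Gstm5 was above Gstm1 in 6 of 6 libraries. The CPM ranges of Gstm6 and Gstm2 also overlapped.

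**Figure D1:**
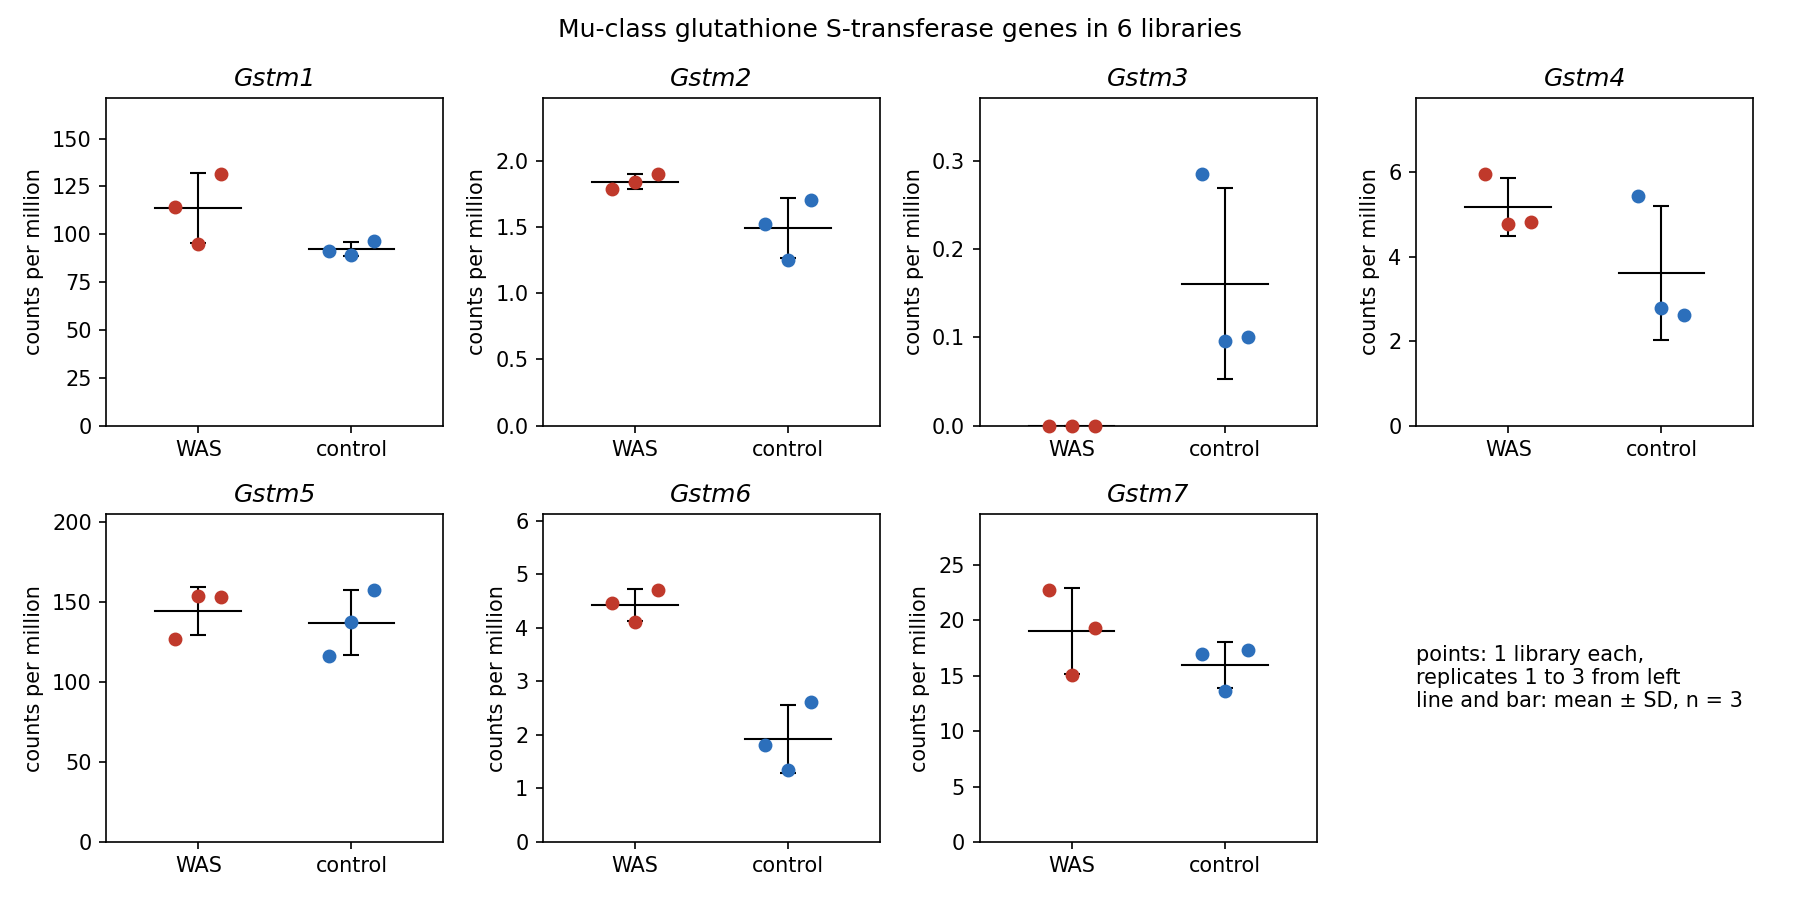
Level of the 7 mu-class genes in CPM of the library total (vertical axes from 0, different for each gene) in 3 libraries labelled WAS and 3 labelled control. Points are libraries, and lines with bars are the mean ± SD (n = 3). The groups are separate for Gstm6, with 4.11 to 4.71 CPM against 1.35 to 2.61 CPM, and overlap widely for Gstm5.

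The comparison of WAS with control asked whether the family differed after 1 h of stress. Of the 7 members, 6 passed the filter on low counts and were tested, and 0 passed an adjusted p of 0.05 (quasi-likelihood test of edgeR, Benjamini-Hochberg over all genes tested). This was the case for 0.0% of the 15239 genes tested, the smallest adjusted p of any gene being 0.477. At the same threshold DESeq2 called 22 genes and limma 0 genes, and no member was among them. At an unadjusted p under 0.05, Gstm6 and Gstm1 were 2 of 6, against 7.24% of all genes tested. With a fold change of at least 1.5 as a further criterion, Gstm6 alone was left, against 2.49% of all genes, or 1.82% counting only genes higher in the libraries labelled WAS. All 6 tested members had a log2 fold change above 0, against 50.2% of all genes. Their median log2 fold change was 0.26, against 0.00088 over all genes tested. Members of a cluster measured in the same 6 libraries are not independent of each other. For 2 of the 6 members, Gstm6 and Gstm2, the 3 libraries labelled WAS all lay above the 3 labelled control, against 12.2% of all genes without overlap in either direction and 8.42% with WAS higher.

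Gstm6 showed the widest difference of the tested members. WAS replicates 1, 2 and 3 held 45, 38 and 47 counts of it, and the control replicates 19, 14 and 26. As CPM these were 4.47, 4.11 and 4.71 against 1.81, 1.35 and 2.61. Every library labelled WAS was above every library labelled control. The WAS libraries varied by 6.81%, less than the 15.2% that counting alone would give, so their closeness is within counting error. The control libraries varied by 33.1%, with 22.5% from counting. The part of the thalamic and midbrain markers in the Gstm6 values was not tested. The group means were 4.43 ± 0.302 CPM and 1.92 ± 0.636 CPM (SD, n = 3 each). The log2 fold change was 1.17 with a standard error of 0.33, an unadjusted p of 0.00427 and an adjusted p of 0.514 by edgeR, so that Gstm6 did not pass the adjusted threshold. Pooled over each group, 130 and 59 counts gave exact 95% Poisson intervals of 3.71 to 5.27 CPM and 1.46 to 2.47 CPM, which cover counting error only. Gstm6 is 1 of the genes that the study itself listed as changed in these same libraries, so these values are not independent evidence. The study's list gives it as lower under stress, opposite to the direction under the sample labels. The direction given here rests on the sample labels alone, and with the labels exchanged Gstm6 would be the lower in WAS. Fits that dropped 1 library at a time gave log2 fold changes from 0.97 to 1.45. Without both WAS replicates 1 and 3, which leaves 1 library in that group, it was 1.05 with an unadjusted p of 0.0525 by edgeR, the lone library being assumed to vary like the others. Without WAS replicate 1 and control replicate 2 it was 0.95.

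**Figure D2:**
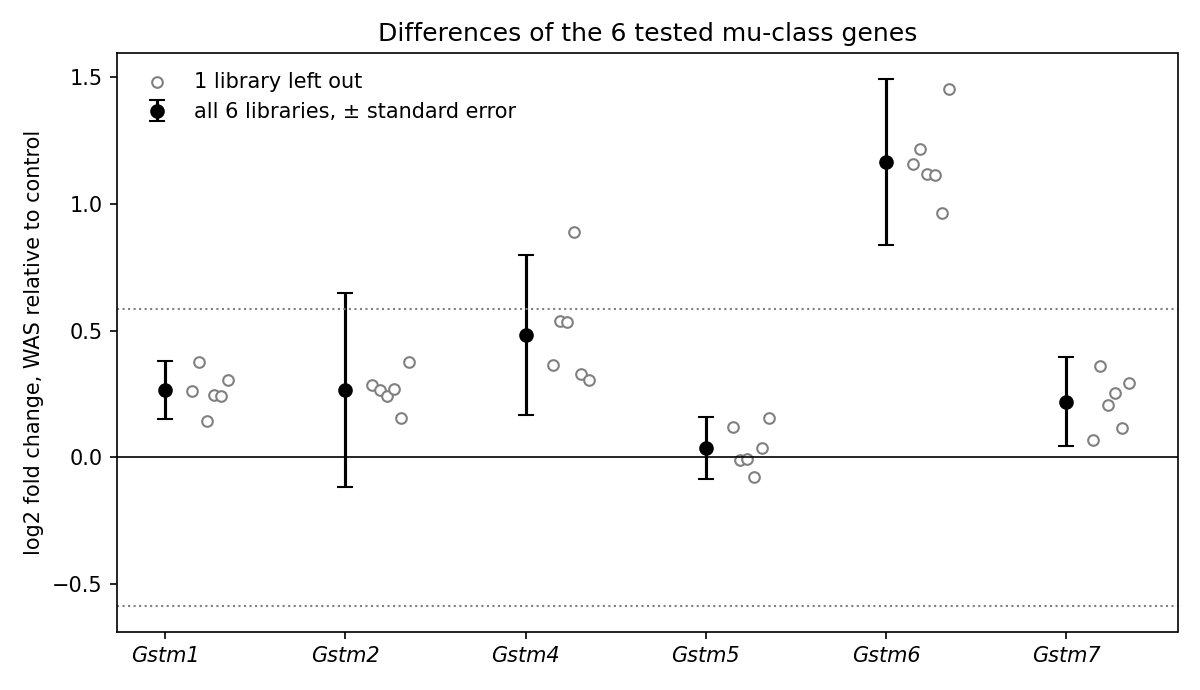
Log2 fold change of the 6 tested mu-class genes in the libraries labelled WAS relative to those labelled control (vertical axis). Black points are edgeR estimates from 6 libraries with standard errors, open points leave out 1 library each, and dotted lines mark a fold change of 1.5. Gstm6 stays between 0.97 and 1.45, while the estimates for Gstm5 lie on both sides of 0.

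Gstm1, the enzyme known from astrocytes, had counts of 1148, 880 and 1315 in the order of the WAS replicates, and of 957, 925 and 962 for control. In CPM the values were 114, 95.2 and 132 against 91.1, 89.1 and 96.4. WAS replicates 1 and 3 were above the control range and WAS replicate 2 was within it. These are the libraries that were high in thalamic and midbrain markers, whose part in the Gstm1 values was not tested. The group means were 114 ± 18.3 CPM and 92.2 ± 3.77 CPM (SD, n = 3 each). The log2 fold change was 0.26 with a standard error of 0.11, an unadjusted p of 0.0412 and an adjusted p of 0.679 by edgeR. Counting error was small at this depth. For the WAS group it would give a coefficient of variation of 3.00%, where the libraries varied by 16.1%, while the control libraries varied by 4.09% with 3.25% from counting. The log2 fold change was 0.14 without WAS replicate 3 and 0.0047 without both WAS replicates 1 and 3. Without WAS replicate 2 it was 0.38, with an adjusted p of 0.0539 by edgeR. The unadjusted p was under 0.05 in 8 of 13 alternatives. By edgeR it was 0.0674 without WAS replicate 1, 0.227 without WAS replicate 3, 0.109 without control replicate 1 and 0.115 without control replicate 2, and by limma with all libraries it was 0.111.

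Gstm5 was the most abundant member and the one with the smallest difference. Its levels were 127, 153 and 153 CPM with the label WAS and 116, 137 and 158 CPM with the label control. The highest and the lowest value both belonged to the control group. The log2 fold change was 0.036 with a standard error of 0.12 and an adjusted p of 0.972 by edgeR. It was below 0 in 3 of the 6 fits that left out 1 library, at -0.077 without control replicate 1, -0.0098 without WAS replicate 2 and -0.0083 without WAS replicate 3, and it reached 0.16 without control replicate 3 and 0.12 without WAS replicate 1. The libraries of Gstm5 varied by 10.5% in the WAS group and 15.0% in the control group, several times the 2.67% that counting would give in either.

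Gstm7, the third member by level, was at 22.7, 15.0 and 19.3 CPM for WAS replicates 1 to 3, and at 16.9, 13.6 and 17.3 CPM for control replicates 1 to 3. As with Gstm1, WAS replicates 1 and 3 lay above the control range and WAS replicate 2 within it. Its log2 fold change was 0.22 with a standard error of 0.18 and an adjusted p of 0.866 by edgeR. Leaving out WAS replicate 1 alone gave 0.069, leaving out control replicate 2 alone gave 0.12, and leaving out WAS replicate 2 alone gave 0.36. Without both WAS replicates 1 and 3 the value was -0.13, and without WAS replicate 1 and control replicate 2 it was -0.036.

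Gstm4 was measured at 60, 44 and 48 counts with the label WAS and 57, 29 and 26 counts with the label control. Control replicate 1 lay within the WAS range and the other 2 control libraries well below it. The control libraries varied by 43.7%, against 16.4% from counting. The log2 fold change was 0.48 with a standard error of 0.32 and an adjusted p of 0.815 by edgeR. Without control replicate 1 it was 0.89 with an unadjusted p of 0.0178, which met both criteria. Without control replicate 2 it was 0.33 with an unadjusted p of 0.374, and without control replicate 3 it was 0.31 with an unadjusted p of 0.393, both by edgeR. Without both WAS replicate 1 and control replicate 2 it was 0.21.

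Gstm2 had 18, 17 and 19 counts in the libraries labelled WAS against 16, 13 and 17 in those labelled control. As CPM, 1.79, 1.84 and 1.90 lay above 1.52, 1.25 and 1.70, but the gap between the groups was smaller than the value of 1 count. The log2 fold change was 0.27 with a standard error of 0.38 and an adjusted p of 0.942 by edgeR. It was 0.16 without control replicate 2 and 0.38 without control replicate 3. A difference of the size seen for Gstm1 could not be detected at this depth, since counting alone gives a coefficient of variation of 23.6% in the WAS group and 25.5% in the control group. Gstm3 had 0 counts in each library labelled WAS and 3, 1 and 1 counts in the control libraries. It was below the filter and was not tested, and no fold change is given because both groups were at or under 3 counts per library, which corresponds to 0.286 to 0.324 CPM. Gstm1, the member closest to Gstm3 in sequence, had 880 to 1315 counts in the same libraries.

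Gstm6 was then compared with the rest of its family inside each library, which needs no scaling between libraries. Its share of the counts of the 7 members was 1.62% in WAS replicate 1, and 1.49% in WAS replicate 3 with replicate 2 between them. In the control replicates it was 0.775%, 0.549% and 0.936%. The shares of the groups did not overlap. The Wilson 95% interval reached down to 1.09% in WAS replicate 2 and up to 1.37% in control replicate 3, so that single libraries of the groups overlapped within counting error. The log2 ratio of Gstm6 to the summed counts of the other 6 members was -6.00 ± 0.068 in the WAS group and -7.08 ± 0.393 in the control group (SD, n = 3 each). The difference was 1.07, with p = 0.1 in a two-sided exact permutation test, the smallest p that 3 libraries against 3 allow. Dropping 1 library at a time gave differences from 0.86 to 1.25. The sum of the 7 members was 276, 274 and 315 CPM with the label WAS and 234, 246 and 278 CPM with the label control, with overlapping groups.

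**Figure D3:**
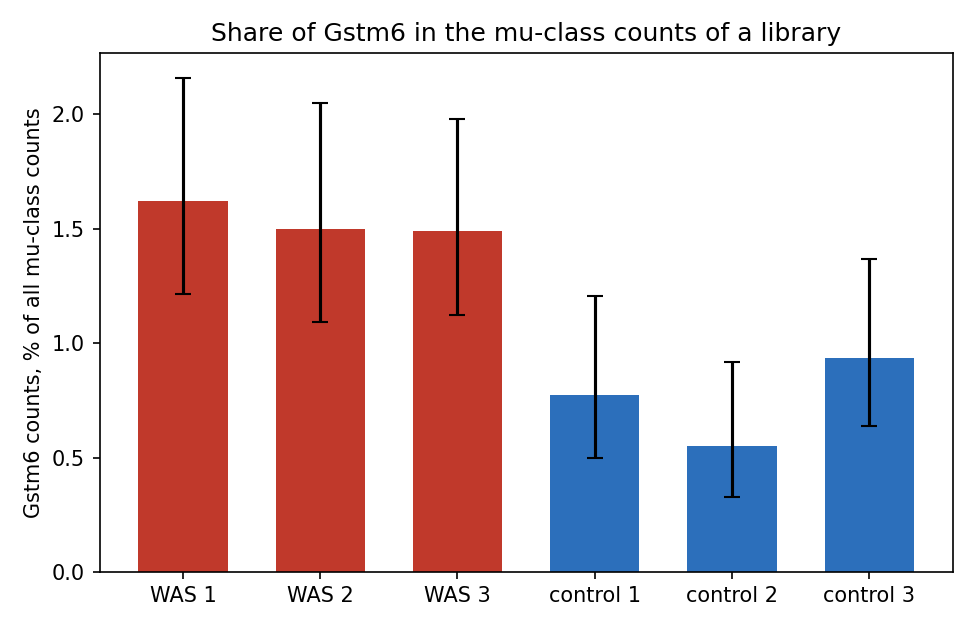
Share of Gstm6 in the counts of the 7 mu-class genes, in percent (vertical axis from 0), in each of 6 libraries. Bars are single libraries and error bars are Wilson 95% intervals for counting error. The 3 libraries labelled WAS sit between 1.49% and 1.62% and the 3 labelled control between 0.549% and 0.936%.

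Markers of the cells that could carry these transcripts were set beside them. Of all genes tested, 2.49% met both criteria, 7.24% had an unadjusted p under 0.05 and 12.2% had groups that did not overlap. The 10 astrocyte markers summed to 4931 to 5106 CPM with the label WAS and 4775 to 4852 CPM with the label control, without overlap. Their median log2 fold change was 0.20, and 0 of 10 met both criteria. By edgeR, 4 of 10 had an unadjusted p under 0.05, each of the 4 higher in WAS. The log2 fold changes of the 10 ran from -0.11 to 0.51, with 7 above 0, against 50.2% of all genes tested. The 8 meningeal fibroblast markers summed to 150 to 209 CPM against 95.8 to 158 CPM, with a median log2 fold change of 0.46 and 2 of 8 meeting both criteria. The 10 thalamic and midbrain markers, 9 of them tested, had a median log2 fold change of 1.66 with 6 meeting both criteria. Neuronal markers summed to 6520 to 6843 CPM with the label WAS and 6955 to 7677 CPM with the label control, without overlap. Of the 7 neuronal markers 0 met both criteria and 2 had an unadjusted p under 0.05, both lower in WAS, with a median log2 fold change of -0.094 over the list. Endothelial markers (180 to 199 against 177 to 205 CPM), microglial markers (306 to 366 against 320 to 369 CPM) and oligodendrocyte markers (5370 to 7383 against 5608 to 6613 CPM) overlapped between the groups. The part of these cell types and regions in the values of the mu-class genes was not tested.

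**Figure D4:**
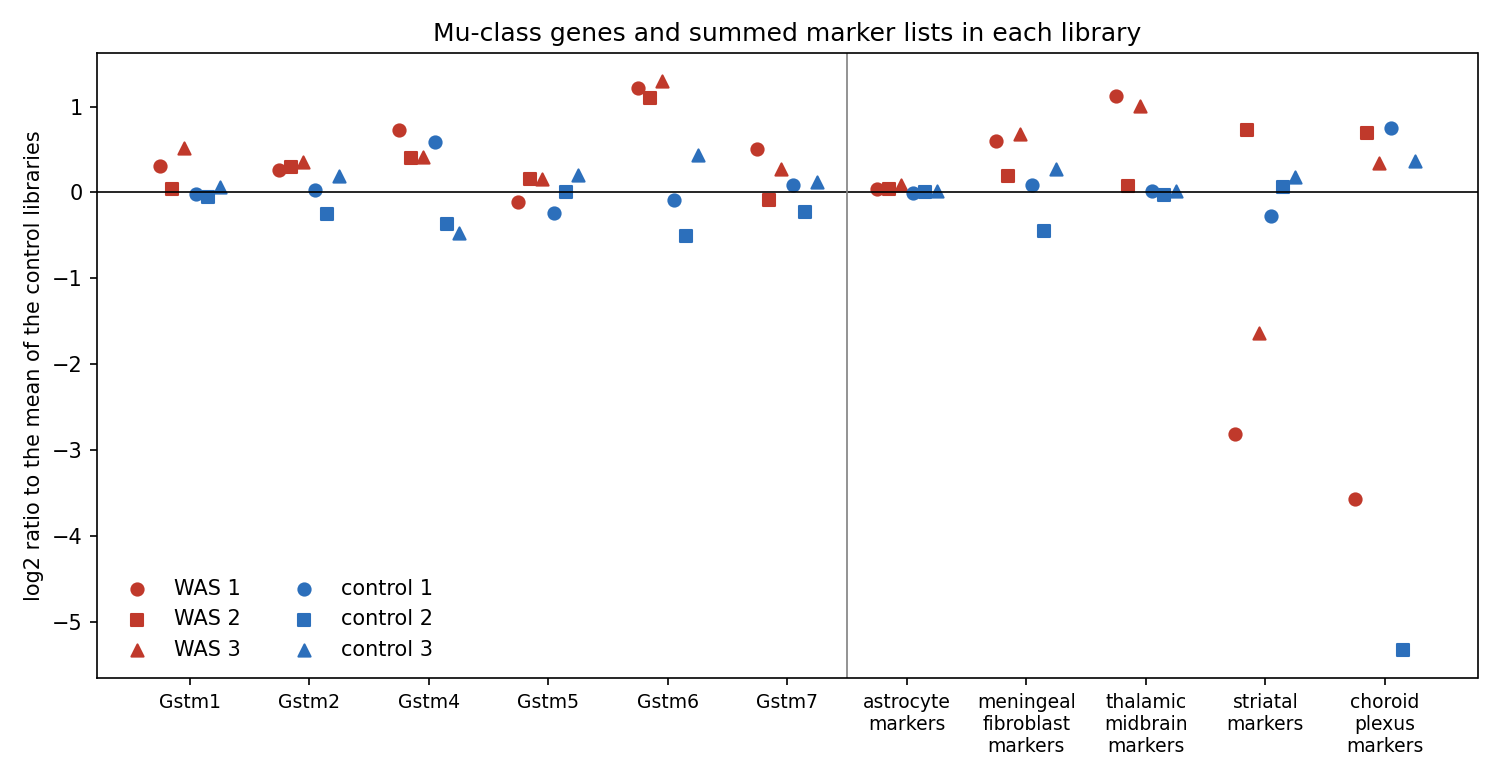
Log2 ratio of each library to the mean of the control libraries (vertical axis) for the 6 tested mu-class genes and for the summed CPM of 5 marker lists. Red marks are libraries labelled WAS and blue marks those labelled control. WAS replicates 1 and 3 stand high in thalamic and midbrain markers and low in striatal markers. Gstm1 and Gstm7 are higher in these than in WAS replicate 2. Gstm6 is above the control libraries in all 3 WAS libraries, and the part of the markers in these values was not tested.

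The other genes of glutathione conjugation were described through 5 lists holding 75 genes, of which 64 were tested. By edgeR, 0 of the 64 passed an adjusted p of 0.05, and 6 had an unadjusted p under 0.05, against 7.24% of all genes tested. Both criteria were met by 3 genes, or 4.69%, against 2.49% of all genes tested: Gstt3, Gpx3 and Nqo1, all higher in the libraries labelled WAS. The other 3 with an unadjusted p under 0.05 were Slc7a11, Gsta4 and Cbr1, which are named after their values were seen. Gsta4, an alpha-class transferase, had a log2 fold change of 0.43 with an unadjusted p of 0.0223 by edgeR, and Cbr1, a carbonyl reductase, of 0.22 with an unadjusted p of 0.0255. A positive log2 fold change was found for 36 of the 64, against 50.2% of all genes tested, and their median was 0.019. Of the pathway genes named here, Slc7a11, Cbr1, Gstp1, Glrx5, Gpx3 and Nqo1 had groups that did not overlap as CPM. So did other genes of the lists that are not named. Over all genes tested, 12.2% had groups without overlap.

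Among 14 tested genes for the uptake of precursors and the synthesis and turnover of glutathione, 0 met both criteria and the median log2 fold change was -0.01. Without control replicate 1 this median was 0.11, without WAS replicate 2 it was 0.057, and without both WAS replicates 1 and 3 it was -0.087. Slc3a2, the heavy chain of the cystine and glutamate exchanger, was at 147 ± 12.4 CPM under the label WAS and 140 ± 7.26 CPM under the label control (SD, n = 3 each). Gclc, the catalytic subunit of the enzyme that limits glutathione synthesis, was at 67.9 ± 5.02 and 68.1 ± 2.29 CPM. The differences of Slc3a2 and Gclc were within the spread of the libraries. Slc7a11, the light chain of the same exchanger, was the 1 gene of these 14 with an unadjusted p under 0.05. It had 418, 391 and 534 counts with the label WAS and 409, 375 and 364 with the label control, or 45.8 ± 6.70 and 37.2 ± 1.54 CPM (SD, n = 3 each), and its groups did not overlap as CPM. Its log2 fold change was 0.26 with a standard error of 0.12, an unadjusted p of 0.0475 and an adjusted p of 0.685 by edgeR.

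Transferases of other classes gave a median log2 fold change of 0.16 over 15 tested genes. The median was 0.061 without WAS replicate 3, 0.079 without control replicate 3 and 0.027 without both WAS replicates 1 and 3. The pi-class genes Gstp1 (61.8 ± 1.02 against 58.0 ± 0.528 CPM) and Gstp2 (58.6 ± 2.31 against 58.4 ± 2.76 CPM) are near-identical copies, so their separate counts are uncertain. Gstt3, a theta-class transferase, had 75, 31 and 57 counts for WAS replicates 1 to 3, against 31, 37 and 30 for the controls. Only WAS replicates 1 and 3 were above the control range. Its log2 fold change was 0.76 with a standard error of 0.32 and an adjusted p of 0.664 by edgeR.

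Of 10 tested peroxidases, glutaredoxins and reductases, 1 met both criteria, and the median log2 fold change was 0.089. Without WAS replicate 3 it was -0.0073, without control replicate 1 it was -0.0082, and without WAS replicate 2 it was 0.011. Glrx5, a mitochondrial glutaredoxin of iron-sulfur cluster assembly, was at 103 ± 5.98 against 89.5 ± 3.11 CPM. Glrx2, also a glutaredoxin of mitochondria, was at 89.9 ± 3.57 against 91.5 ± 8.05 CPM. Gpx3, the secreted glutathione peroxidase, had 125, 110 and 135 counts with the label WAS and 69, 63 and 113 with the label control, with a log2 fold change of 0.62, a standard error of 0.24 and an adjusted p of 0.628 by edgeR. The groups of Gpx3 did not overlap as CPM, although control replicate 3 came close to the WAS range.

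Export of glutathione conjugates was represented by 6 tested genes, with 0 meeting both criteria and a median log2 fold change of -0.01, which lay between -0.048 and 0.019 when 1 library was dropped. Abcc5, a multidrug resistance transporter, was at 105 ± 4.19 against 103 ± 8.76 CPM, a difference smaller than the spread of its libraries.

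The Nrf2 pathway, which drives the expression of many conjugating enzymes, had 1 of 19 tested genes meeting both criteria and a median log2 fold change of 0.0038. That median was 0.054 without WAS replicate 2, -0.031 without WAS replicate 3, 0.034 without control replicate 3 and 0.041 under total-count scaling. Fth1, the ferritin heavy chain, was at 1362 ± 116 against 1265 ± 84.7 CPM, and Mafg, a small Maf partner of Nrf2, at 133 ± 20.9 against 137 ± 15.7 CPM. Nqo1, a quinone reductase and widely used target of Nrf2, had 21, 18 and 22 counts with the label WAS and 9, 10 and 13 with the label control. The groups of Nqo1 did not overlap, which held for 12.2% of all genes tested. Its log2 fold change was 0.95 with a standard error of 0.41 and an adjusted p of 0.67 by edgeR.

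**Figure D5:**
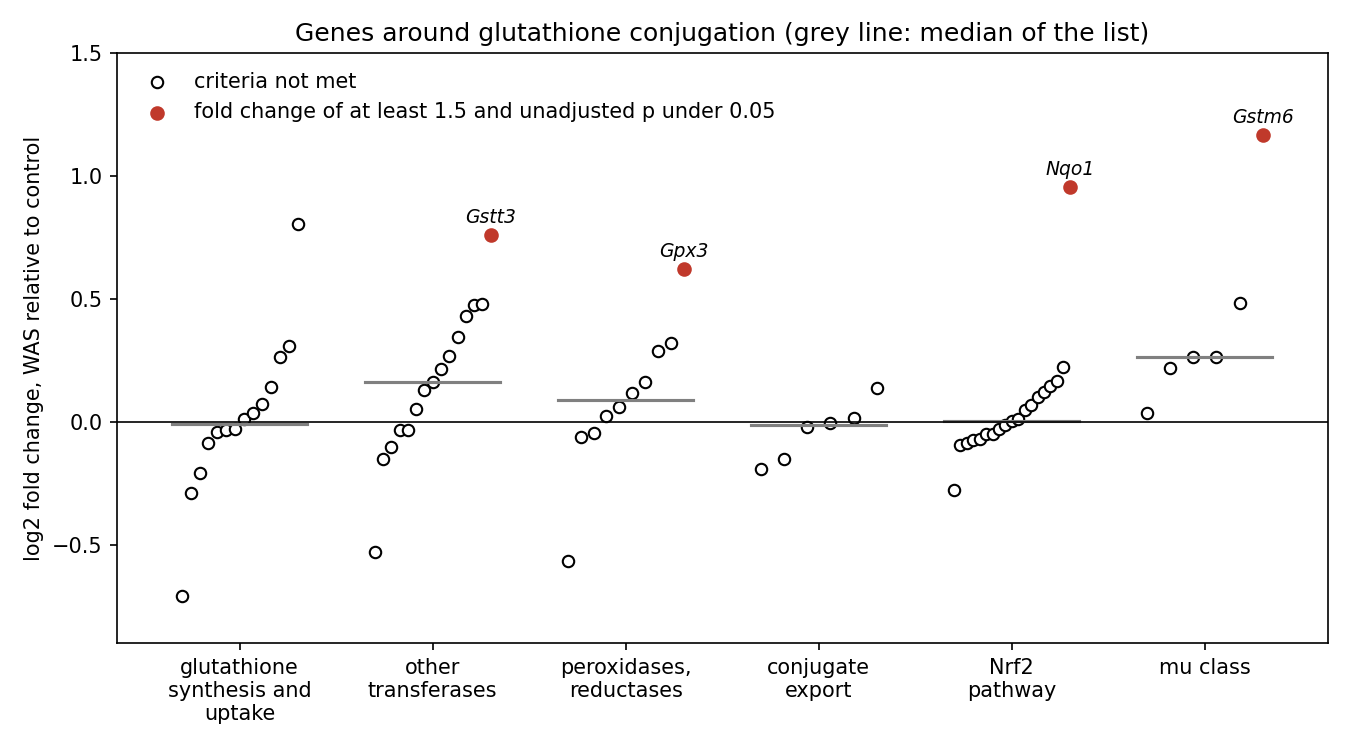
Log2 fold change, libraries labelled WAS relative to control (vertical axis), of the tested genes in 5 lists around glutathione conjugation and of the mu class. Filled points meet both criteria, and grey lines are list medians, which run from -0.01 to 0.16 in the 5 lists and reach 0.26 in the mu class.

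The genes with the profile most like Gstm1 and Gstm6 over the 6 libraries were sought among non-members within 2-fold of their mean CPM, by the root mean square difference of centred log2(CPM + 1). Of 3066 genes compared with Gstm1, whose median distance was 0.213, the nearest were Fam13b at 0.0301, Slco3a1 at 0.0358 and 1500012F01Rik at 0.0482. Fam13b, for example, had 576, 447 and 666 counts for WAS replicates 1 to 3 and 486, 494 and 486 for the controls. Among the members, which were not held to the 2-fold window, Gstm2 at 0.143 and Gstm7 at 0.155 were nearest to Gstm1, and Gstm5 was at 0.224. The 1 CPM added before the logarithm damps the variation of Gstm2, at a mean of 1.67 CPM, more than that of Gstm1. A small distance of Gstm2 is therefore not read as a likeness of profile. Of 2691 genes compared with Gstm6, with a median distance of 0.538, the nearest were Epb4.1l4a at 0.0621, Ccdc160 at 0.123 and Arhgap24 at 0.133. Epb4.1l4a had 61, 58 and 71 counts with the label WAS and 30, 21 and 37 with the label control. All 3 of these genes are, like Gstm6, in the study's own list of changed genes from the same libraries, so they are not independent evidence. That list gives them too as lower under stress, opposite to the direction under the sample labels. Their directions would also turn around with the labels exchanged. The 5 other tested members, not held to the 2-fold window, lay from 0.358 (Gstm1) to 0.458 (Gstm5) from Gstm6, below the median distance of 0.538. These 3 genes were picked as the nearest of 2691, so that the members were farther is no result about the family. Gstm3 was not compared. The distances are a description over 6 libraries that share the 2 groups.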

How the data were processed

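Groups were taken from the sample labels, with 3 libraries each. The deposited values were raw read counts per gene symbol, made by the authors with Bowtie2 alignment and Bedtools, with multiple alignments included. The labels name mm10, while the gene annotation used for counting is not given in the sources used here. A read that matches several copies can therefore be counted in more than 1 of them. Quantile normalization, which the authors applied later, does not enter these values.

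Genes were kept where the mean of log2(quantile-normalized count + 1) over the libraries was at least 2, as the cutoff stated by the study can be read. After TMM scaling, 15239 genes were tested in edgeR 4.0.16 (R 4.3.3, quasi-likelihood, Benjamini-Hochberg adjustment). Standard errors were taken as log2 fold change over the root of F. Alternatives were total-count and RLE scaling, DESeq2 1.42.0, limma 3.58.1 on quantile-normalized log2 counts, no filter, filterByExpr, dropping single libraries, and blocking on the replicate number. The test scripts were first run on simulated counts with known changes. Levels are CPM of the library total, which includes the 45S ribosomal RNA gene Rn45s (4.96% to 7.32% of counts). The read counts carry no molecular identifiers, so Poisson and Wilson intervals cover counting error only. Ratios were tested with scipy 1.17.1. Sequences, coordinates and lengths came from GENCODE M21 on GRCm38, with the longest principal transcript of each gene. All 7 members were matched by symbol.

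The members and the lists of pathway and marker genes were chosen with earlier results of these data known. Named in the text are the 7 members, the 2 most abundant tested genes of each pathway list and those meeting both criteria, and the 3 nearest profiles of Gstm1 and Gstm6. Slc7a11, Gsta4 and Cbr1 fall outside this rule and were chosen after their values were seen. Marker lists are given by sums and counts, apart from genes at 0. Some genes that these rules name are not reported here.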

Additional observations from a re-analysis of the deposited data

How the results depend on the processing

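Over 13 alternatives for each tested member, 0 members passed an adjusted p of 0.05. Gstm6 met the criteria of fold change and unadjusted p in 13 of 13, with a log2 fold change of 1.12 to 1.20 under other scalings, tests, filters and the block. With 1 library left out, the log2 fold change ran from -0.077 to 0.16 for Gstm5, 0 to 491 genes passed an adjusted p of 0.05 (the highest without WAS replicate 2), 264 to 825 met both criteria, as did 1 to 2 members and 1 to 4 pathway genes. DESeq2 called 22 genes at an adjusted p under 0.05. Leaving out both WAS replicates 1 and 3, chosen after seeing the data, gave 1 gene at an adjusted p under 0.05, 0 members meeting both criteria and a Gstm7 log2 fold change of -0.13. Leaving out WAS replicate 1 and control replicate 2, also chosen after seeing the data, gave -0.036 for Gstm7 and 0 pathway genes. The median log2 fold changes of the 5 pathway lists changed sign in 15 of 75 values under the alternatives. The cause was not tested. Gstm3 was at or under 3 counts and has no value under any alternative.

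With the replicate number as a block, 49 genes passed an adjusted p of 0.05, 0 of them members, and 1 pathway gene met both criteria; Gstm6 had a log2 fold change of 1.19 (adjusted p = 0.223 by edgeR) and Gstm1 of 0.25, and the same-numbered difference of the Gstm6 ratio was 1.07. The deviations of same-numbered libraries correlated at 0.066, 0.0845 and 0.0873 over genes. Each library correlated best with its own number, which is a hint from the data and not the design, so the block was not used.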
